A study of Arabidopsis thaliana with 8 samples.

Results

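PRK, SBPASE and AT5G58330 encode 3 enzymes of the chloroplast stroma that are switched on through thioredoxin. Each has 1 probe on the array whose annotation lists that gene and no other. They are 3 of the 692 single-gene probes, among 3439 probes in all, and the rule that picks them uses their loci (AT1G32060, AT3G55800 and AT5G58330) and no measured value. Transcripts were measured in wild-type Arabidopsis thaliana of the Landsberg ecotype after 48 hours of red light at 20 µE or at 200 µE, on 4 arrays each. No mutation, transgene or other agent is named for either group, and no area or time unit is given with µE. The tissue and the plants' age are not given in the sources used. The labels do not say whether arrays of 1 group held RNA of separate plants, so a p-value here covers array-to-array spread alone, and that spread may be technical. In RNA pooled from many cells, fewer cells of a type and less RNA per cell cannot be told apart.

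In the light, electrons from photosystem I pass through ferredoxin and ferredoxin-thioredoxin reductase to thioredoxins, which reduce disulfide bonds in target enzymes and so turn them on. Phosphoribulokinase, encoded by PRK, makes the CO2 acceptor ribulose bisphosphate, and sedoheptulose bisphosphatase, encoded by SBPASE, commits carbon to regeneration of that acceptor in the Calvin-Benson cycle. The NADP-dependent malate dehydrogenase encoded by AT5G58330 turns oxaloacetate into malate, which carries surplus reducing power out of the chloroplast in what is called the malate valve. An array reads their RNA and not the redox state or activity of the proteins. The comparison asks whether bright red light changes the level of these transcripts against dim light.

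PRK had much the same place among the probes of the array at both light levels, AT5G58330 stood lower in bright light in every same-numbered pair of arrays, and SBPASE gave no level. Relative to the bulk of the array, PRK differed by −0.05 ± 0.23 (SE) on the log2 scale and AT5G58330 by −0.59 ± 0.35 (SE), neither past the threshold of an adjusted p under 0.05 over all probes (limma, adjusted p = 1 and 0.453). With the replicate number as a block, so that same-numbered arrays are compared with each other, AT5G58330 was lower with an adjusted p of 0.0453 by limma. In that fit 10.1% of all probes were called lower. The call was lost under median centring (limma, adjusted p = 0.0644) and whenever the arrays of 1 replicate number were left out. The pairing itself was taken from these data. In the deposited intensities, without further scaling between arrays, both genes had higher means at 200 µE, as most probes did. Every array has a maximum of 100 in these values, so they may have been scaled before deposit.

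Array-wide differences bear on every value below. The deposited values reach the same maximum of 100 on all 8 arrays. Whether they were scaled to it is not stated, so a deposited difference may be relative to that maximum. The median intensity of the probes above 0 ran from 0.267 to 0.345 on the arrays at 20 µE and from 0.513 to 0.578 at 200 µE, and 573 to 604 probes per array at 20 µE against 476 to 540 at 200 µE were listed at 0. For the 2600 probes that no array listed at 0, the log2 differences had a median of 0.82 in the deposited values and of −0.04 after quantile normalization, which gives every array the same distribution. A normalized difference is thus relative to the other probes, and a shift common to all of them is not visible in it. Of 8 green tissue markers, PSAN (a photosystem I subunit) and LHB1B2 (a light-harvesting protein of photosystem II) were measured, and both were above 0 on all arrays. Their normalized values were lower in bright light in all 4 pairs, as on 30.9% of the probes above 0 on all arrays. LHB1B2 had same-numbered log2 differences of −0.95, −0.59, −1.54 and −1.51. Its groups did not overlap, as in this direction on 11.2% of the probes above 0 on all arrays. LHB1B2 missed the threshold without the block (limma, adjusted p = 0.0809). With the replicate number as a block it passed (limma, adjusted p = 0.0482), where 10.1% of all probes were called lower. PSAN differed by −0.15 ± 0.06 (SE; limma, adjusted p = 0.229, and 0.106 with the block). The median of the 2 markers was −0.65, with 0 called higher and 0 lower without the block in quantile-normalized values. Under median centring without the block both were called lower (limma, adjusted p = 0.00783 for LHB1B2 and 0.0249 for PSAN). In that fit 168 of 3439 probes were called lower. Median centring shifts all probes of an array by 1 amount. Bright probes rose less in the deposited values. In 4 equal brightness classes of the 2600 probes, the median log2 difference was 0.47 in the brightest and 0.83 to 1.02 in the others. PSAN and LHB1B2 lay on average above 95.7% and 98.8% of the probes of an array. The part of brightness in their calls was not tested. None of the 4 senescence markers was measured.

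**Figure D1:**
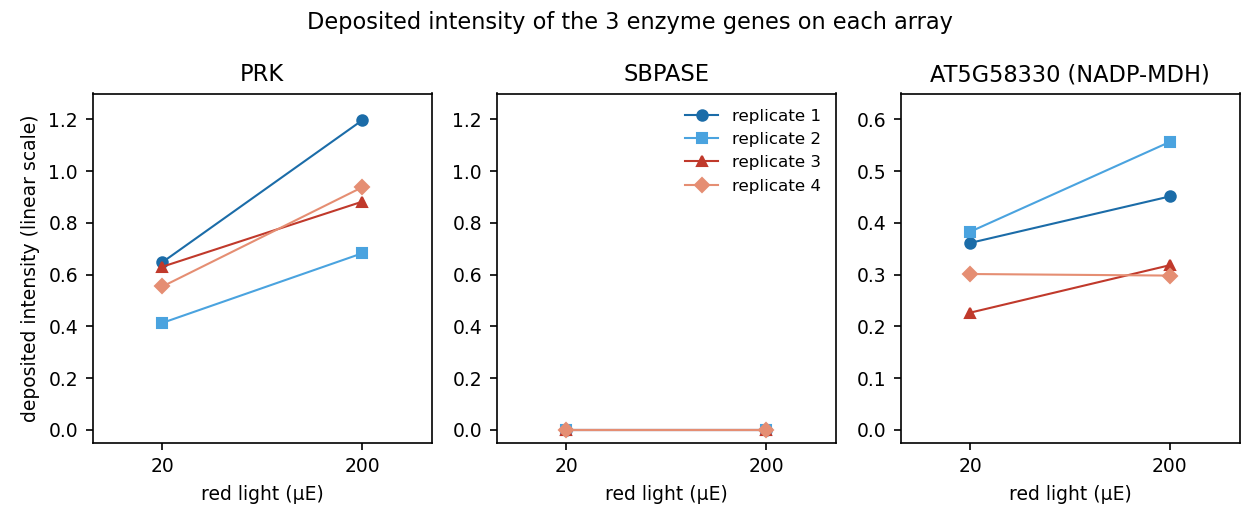
Deposited intensity (linear scale) of PRK, SBPASE and AT5G58330 on each array against red light in µE. Points of 1 replicate number are joined, and the vertical scale of AT5G58330 differs from the others; PRK is higher at 200 µE in all 4 pairs, AT5G58330 in 3, and SBPASE is at 0 on every array.

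PRK had deposited intensities of 0.648, 0.414, 0.631 and 0.554 on replicates 1 to 4 at 20 µE. At 200 µE its intensities were 1.2, 0.682, 0.882 and 0.937 in the same order. All 4 arrays in bright light lay above all 4 in dim light, and replicate 2 was the lowest array of both groups. The means were 0.562 ± 0.107 (SD, n = 4) and 0.924 ± 0.212 (SD, n = 4). On the log2 scale they differed by 0.71 ± 0.24 (SE; limma on deposited values, adjusted p = 0.0655). The groups did not overlap in this direction on 42% of the probes above 0 on all arrays, and all 4 same-numbered differences were positive on 77.5% of them, so the separation of PRK is common on these arrays. With the replicate block the deposited difference of PRK passed (limma, adjusted p = 0.011), as a rise did on 63.4% of all probes.

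Within each array, PRK held much the same place in dim and bright light. At 20 µE it lay above 84.2%, 73.7%, 76.4% and 72.6% of the probes on replicates 1 to 4. At 200 µE it lay above 85.9%, 69.5%, 71.8% and 73.9%. It moved up in replicates 1 and 4 and down in replicates 2 and 3.

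After quantile normalization the intensity of PRK in dim light averaged 0.758 ± 0.15 (SD, n = 4), and in bright light it averaged 0.741 ± 0.219 (SD, n = 4). The same-numbered log2 differences, 200 minus 20 µE, were 0.13, −0.18, −0.21 and 0.05 in replicates 1 to 4. These have both signs, and their mean was smaller than their SD of 0.17. The 95% interval of the log2 difference ran from −0.59 to 0.49 without the block and from −0.28 to 0.18 with it, the latter a ratio of 200 to 20 µE between 0.822 and 1.13. PRK was not called in the fit over all probes, in which 6.83% of 3439 probes passed, 2.3% higher and 4.54% lower (limma, adjusted p under 0.05). With the block, where 18% of all probes passed (7.91% higher), it was not called either (limma, adjusted p = 0.689). Against the 650 probes of its own brightness class (1 of 4 equal classes), whose median deposited log2 difference was 0.83, PRK lay 0.12 lower.

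**Figure D2:**
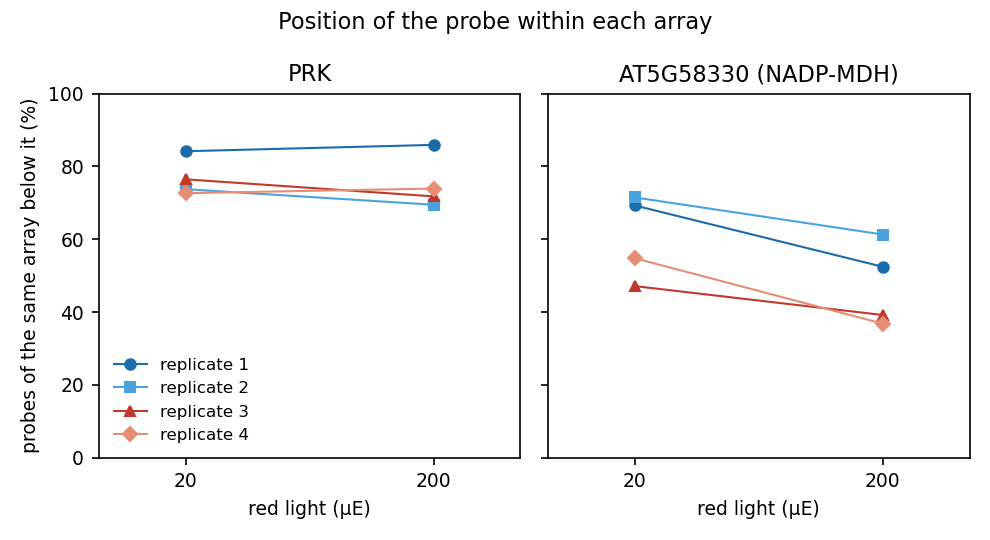
Percentage of probes of the same array that lie below PRK and below AT5G58330, on the vertical axis, against red light in µE; each line joins the arrays of 1 replicate number. PRK stays between 69.5% and 85.9%, and AT5G58330 is lower at 200 µE in all 4 pairs.

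AT5G58330, the malate valve enzyme, had deposited intensities of 0.361, 0.383, 0.227 and 0.301 on replicates 1 to 4 at 20 µE. At 200 µE they were 0.451, 0.557, 0.318 and 0.298. The groups overlapped, and replicates 1 and 2 were above replicates 3 and 4 at both light levels. The means were 0.318 ± 0.0701 (SD, n = 4) and 0.406 ± 0.121 (SD, n = 4). On the log2 scale they differed by 0.33 ± 0.28 (SE; limma on deposited values, adjusted p = 0.343). The same-numbered differences in deposited log2 values were 0.32, 0.54, 0.49 and −0.01. That mean increase was smaller than the median of its brightness class, 0.91, and only 13.2% of the probes of the class had a lower difference.

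Its place within the array was lower in bright light. AT5G58330 lay above 69.3%, 71.5%, 47.1% and 54.8% of the probes at 20 µE on replicates 1 to 4, and above 52.4%, 61.3%, 39.2% and 36.8% at 200 µE. It was lower in every pair, yet the groups overlapped, with replicates 1 and 2 in bright light near or above replicates 3 and 4 in dim light.

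After quantile normalization AT5G58330 had 0.588, 0.629, 0.307 and 0.388 at 20 µE and 0.361, 0.470, 0.233 and 0.214 at 200 µE. The means were 0.478 ± 0.155 (SD, n = 4) and 0.320 ± 0.120 (SD, n = 4). The same-numbered log2 differences were −0.70, −0.42, −0.39 and −0.86, all negative, with a mean of −0.59 and an SD of 0.23. All 4 differences were negative on 30.9% of the probes above 0 on all arrays, so this sign pattern alone is not particular to AT5G58330. The green tissue markers LHB1B2 and PSAN, with mean log2 differences of −1.15 and −0.15, shared it in these normalized values. In deposited values LHB1B2 differed by −1.34 and PSAN by 0.14, against 0.33 for AT5G58330. The part of the markers in the result was not tested.

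Without the block the 95% interval of its log2 difference ran from −1.43 to 0.25, and the exact permutation test over the 70 assignments of the arrays gave a two-sided p of 0.143, with the pairing ignored. With the block the interval ran from −0.90 to −0.28, a ratio of 200 to 20 µE between 0.535 and 0.821 (limma, adjusted p = 0.0453). In that fit 10.1% of all probes were called lower. The call stood close to the threshold: with the block it remained under cyclic loess (−0.56; limma, adjusted p = 0.0458), where 10.7% of all probes were called lower. The call with the block also remained without probes at 0 on any array (limma, adjusted p = 0.0175), where 529 of 2600 were called lower. It was lost under median centring (−0.51; limma, adjusted p = 0.0644), where 12.6% were. It was also lost whenever the 2 arrays of 1 replicate number were left out, whichever the number. The difference then ran from −0.66 to −0.50, with adjusted p from 0.108 to 0.141 by limma. Over all probes these fits called 15 to 223, against 619 with all arrays and the block.

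Replicates 1 and 2 stood apart from replicates 3 and 4 over the whole array, a division seen in the data and not named in the labels. AT5G58330 followed it closely: its normalized mean was 0.512 over replicates 1 and 2 and 0.285 over replicates 3 and 4. The log2 difference between these sets was 0.82 at 20 µE and 0.88 at 200 µE, larger than its difference between the light levels. PRK differed less between the sets, by 0.25 on the log2 scale, and the median absolute difference of the probes above 0 on all arrays was 0.52. Within replicates 1 and 2 the light difference of AT5G58330 was −0.56 and within replicates 3 and 4 it was −0.63 (limma, adjusted p = 0.207 and 0.128), so its size was similar in both sets. The light difference of PRK was −0.03 and −0.08 in the sets (limma, adjusted p = 1 and 0.648).

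**Figure D3:**
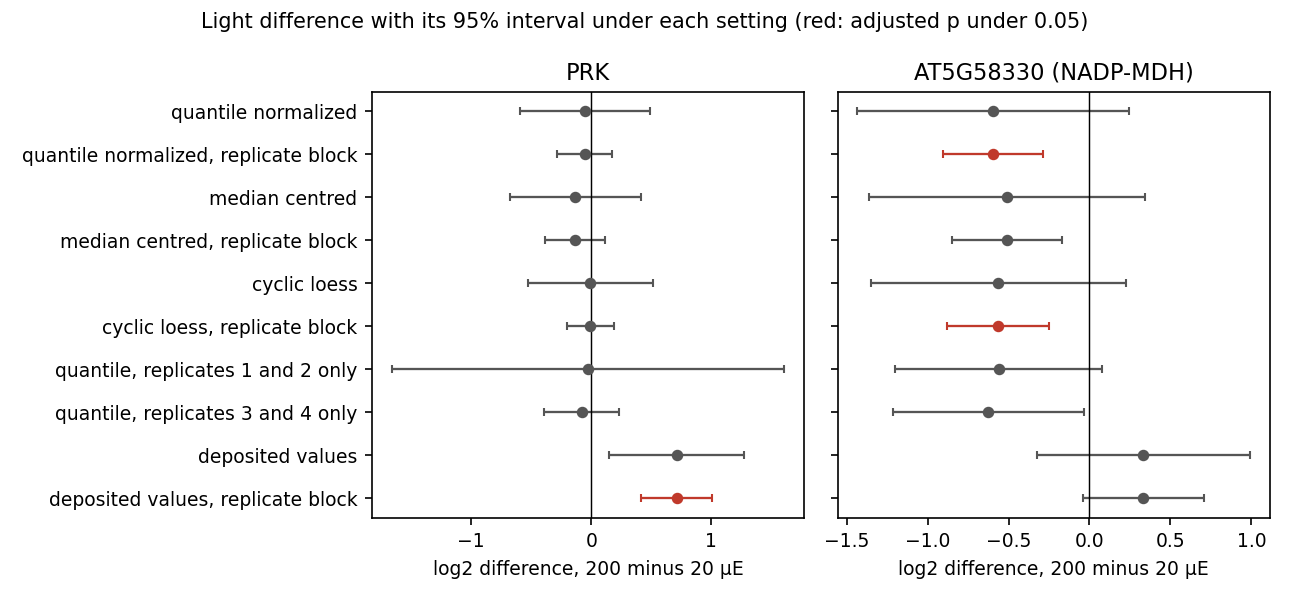
Log2 difference between 200 and 20 µE (horizontal axis) of PRK and AT5G58330 under 10 settings, with bars for the 95% interval and red marking an adjusted p under 0.05 by limma. PRK lies near 0 in every normalized setting, AT5G58330 lies between −0.63 and −0.51 in them, and both turn positive in the deposited values.

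SBPASE was listed at 0 on all 8 arrays, so it has no level, no difference and no fold here. An array-wide 0 was not rare, with 9.31% of all probes and 66 of the 692 single-gene probes (9.54%) at 0 on every array. The lowest value above 0 on an array ran from 2.87e-07 to 0.00136. Why a value was set to 0 is not stated in the labels, and a 0 is therefore not read as a missing transcript. With 4 of 4 arrays at 0 in both groups, the light levels did not differ in their number of 0s.

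The ratio of PRK to AT5G58330 within an array does not change when all values of the array are multiplied by 1 factor, though it does change with quantile normalization, and it compares the changes of both genes, not their levels. In the deposited values the ratio was 1.79, 1.08, 2.78 and 1.84 on replicates 1 to 4 at 20 µE. At 200 µE it was 2.65, 1.23, 2.77 and 3.14. The ratio was higher at 200 µE in replicates 1, 2 and 4 and level in replicate 3, and the groups overlapped. The log2 ratio averaged 0.83 ± 0.56 (SD, n = 4) and 1.21 ± 0.62 (SD, n = 4), a difference of 0.38 (exact permutation test, two-sided p = 0.4).

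Taken within replicate numbers, the log2 ratio changed by 0.56, 0.18, −0.01 and 0.77. Their mean of 0.38 had a 95% interval, from the SD of the 4 differences, of −0.19 to 0.94. The exact sign-flip test of these differences gave p = 0.25, and the smallest p that this test allows with 4 pairs is 0.125. In quantile-normalized values the difference was 0.54 and positive in all 4 pairs, with p = 0.257 by exact permutation of the arrays and 0.125 by exact sign flips. Its 95% interval over the pairs ran from −0.07 to 1.15. Both intervals hold 0 and also changes of the ratio near 2-fold, so these arrays show neither a different nor a like response of PRK and AT5G58330.

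The profiles of the 2 genes over the 8 arrays were neither among the nearest nor among the farthest. The root-mean-square distance between their centred log2 profiles was 0.55, against median distances to the other single-gene probes above 0 on all arrays of 0.53 from PRK and 0.63 from AT5G58330. AT5G58330 ranked 293 of 536 by nearness to PRK, and PRK ranked 207 of 536 by nearness to AT5G58330. The nearest to PRK were AT2G32640, AT3G04560 and AT1G49870, at distances of 0.13, 0.16 and 0.17 and with log2 differences between the light levels of 0.02, 0.10 and −0.05. The nearest to AT5G58330 were AT4G22190, PRA1.B6 and AT5G38360, at 0.14, 0.16 and 0.18. Their log2 differences were −0.67, −0.61 and −0.61. Since these genes were picked for profiles like those of PRK and AT5G58330 over the same arrays, their light differences follow from that choice and are given as a description.

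Of 23 genes listed for the ferredoxin-thioredoxin system and plastid peroxiredoxins, 3 had a single-gene probe: AT2G04700, NTRC and AT3G52960. Of these AT2G04700 alone lies on the ferredoxin path to the enzymes, and it was not called. Among the 3, 1 was called higher, the peroxiredoxin gene AT3G52960, and 0 lower, where 2.3% of all probes were called higher. The median log2 difference of the 3 was 0.58, the value of NTRC, against −0.04 over the probes above 0 on all arrays. Of the 25 listed Calvin-Benson genes PRK and SBPASE were measured, and of the 11 listed malate dehydrogenase and malate shuttle genes AT5G58330 alone was. None of 9 other thioredoxin targets of the chloroplast had a single-gene probe.

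AT2G04700 encodes the catalytic chain of ferredoxin-thioredoxin reductase, the enzyme that hands electrons from ferredoxin to thioredoxins. Its normalized intensity was 0.113, 0.264, 0.221 and 0.212 on replicates 1 to 4 at 20 µE and 0.137, 0.145, 0.140 and 0.144 at 200 µE. Replicate 1 at 20 µE was the lowest array, and the other arrays in dim light all lay above those in bright light. The log2 difference was −0.45 ± 0.26 (SE; limma, adjusted p = 0.433, and 0.264 with the block), from 0.27 in replicate 1 and −0.87, −0.67 and −0.56 in replicates 2 to 4. In deposited values every bright array was above every dim one for AT2G04700, as on 42% of the probes above 0 on all arrays. The deposited difference was 0.70 (limma, adjusted p = 0.14), below the median of 0.82 over those probes.

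NTRC, a chloroplast thioredoxin reductase that draws on NADPH and not on ferredoxin, had same-numbered log2 differences of 0.44, 0.71, 0.50 and 0.67. It was thus higher in bright light in all 4 pairs, and its groups did not overlap, as on 5.77% of the probes above 0 on all arrays. NTRC missed the threshold without the block (limma, adjusted p = 0.0775). With the block it passed (limma, adjusted p = 0.0177), where 7.91% of all probes were called higher. Under median centring without the block its difference was 0.53 (limma, adjusted p = 0.235). The peroxiredoxin gene AT3G52960, whose product removes peroxides, rose with differences of 1.13, 0.80, 1.16 and 1.02 (limma, adjusted p = 0.0111). All 4 differences were positive on 25% of the probes above 0 on all arrays.

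**Figure D4:**
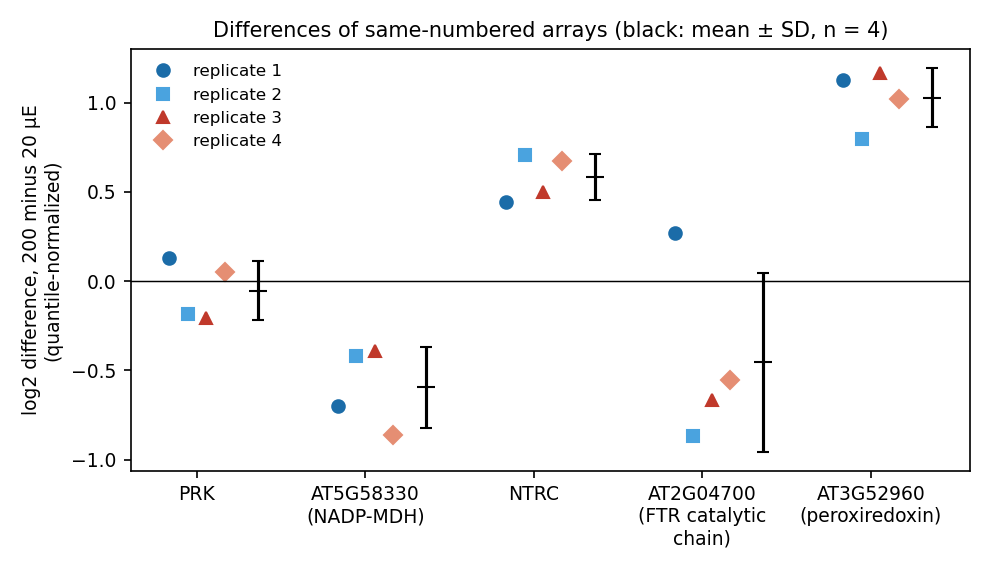
Log2 difference of same-numbered arrays, 200 minus 20 µE, in quantile-normalized values for PRK, AT5G58330 and the 3 measured genes of the ferredoxin-thioredoxin and peroxiredoxin list; coloured points are replicates 1 to 4 and black bars the mean ± SD (n = 4). PRK straddles 0, AT5G58330 is negative and NTRC and AT3G52960 are positive in every pair, and AT2G04700 is positive in replicate 1 alone.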

How the data were processed

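Total RNA of 8 samples was measured on single-channel arrays. The deposited values are intensities and were treated as linear, which was not tested. Each array spans 0 to the same maximum of 100, so a scaling of each array before deposit is possible. The authors' steps before deposit are not given in the sources used. A value of 0 was replaced by its array's lowest positive value, followed by quantile normalization between arrays and log2. The light levels were compared on all 3439 probes by limma's lmFit and eBayes (version 3.58.1, R 4.3.3), 4 arrays against 4 and two-sided. Adjustment by Benjamini-Hochberg covered all probes, and 0.05 was the threshold. The code was tested on simulated data. The number of arrays limits the precision.

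Groups and replicate numbers came from the labels. Deviations from group means over 2600 probes correlated at 0.707 to 0.735 in same-numbered arrays, above all other combinations (at most 0.462), so same-numbered arrays were treated as pairs. This pairing comes from the data, since the labels do not state it. No 2 arrays held identical values.

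Of 692 single-gene probes, 690 matched the TAIR10.1 gene table, used for names only. The reference lists 3 transcripts for AT5G58330, and which of them the probe reads is not known here. Members and gene lists were chosen with earlier results of these data known. Named genes were the members, the measured genes of the lists, and for each member above 0 the 3 single-gene probes with the nearest profile. Alternatives were other normalizations, filters, floors and variance estimates, the replicate block, the replicate sets and leaving out arrays. Alternatives that join the block with another choice were chosen after seeing the data.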

Additional observations from a re-analysis of the deposited data

Results flagged for a closer look

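In 26 groups of 4 arrays from the named genes, 1 array lay far from the others of its group, where chance gives about 1 in 20 groups. It was replicate 1 at 200 µE for LHB1B2, whose normalized log2 value was 2.40 while the other 3 arrays averaged 2.87. The distance to its nearest neighbour was 0.914 of the group's range. No array stood out in this way for PRK or AT5G58330.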

How the results depend on the processing

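PRK changed sign in the deposited values, to 0.71 with and without the replicate block, and leaving out single arrays gave −0.241 to 0.0755. With the block and 1 replicate number left out, PRK ran from −0.11 to −0.0012. AT5G58330 changed sign in the deposited values as well, to 0.33 with and without the block (limma, adjusted p = 0.0944 and 0.343). Its call passed with the block in quantile-normalized values (−0.59), also when probes at 0 on any array were left out (−0.59; limma, adjusted p = 0.0175), and under cyclic loess (−0.56). With the block and without probes at 0 on any array, 529 of 2600 probes were called lower. Leaving out single arrays without the block gave −0.80 to −0.42 for AT5G58330 (limma, adjusted p = 0.305 to 0.705). The ratio of PRK to AT5G58330 kept its sign and missed the threshold in all 11 alternatives, from 0.14 to 0.68, with exact p from 0.114 to 0.857. The sign-flip tests among these could not pass, since the smallest p they allow is 0.125. Without replicate 2 at 20 µE the ratio difference was 0.14 and without replicate 2 at 200 µE 0.68.

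The count of called probes was 235 (79 higher, 156 lower). It was 927 in the deposited values (883 higher, 44 lower), 146 without the lowest 25% of probes, 156 without probes at 0 on any array and 611 in replicates 3 and 4 alone. Leaving out single arrays gave 140 to 173. With the block the count was 619, and 2266 with deposited values, 634 with median centring, 671 with cyclic loess and 931 without probes at 0 on any array. Leaving out 1 replicate number with the block gave 15, 100, 204 and 223 without replicates 3, 4, 2 and 1. The cause of these changes was not tested. Detection calls were not used, so signal over background is unknown.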
